A study of Danio rerio with 22 samples.

Results

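The Z-higher genes are 77 genes of zebrafish germ cells whose transcript level was higher in the Z-hybrid than in the W-hybrid at both ages sequenced by Smart-seq, out of 32057 genes measured. Levels are in TPM, the abundance scaled by gene length and library total that the authors deposited, and differences between hybrids are on the log2(TPM+1) scale unless stated otherwise. The members were chosen by these Smart-seq levels. A gene was a member when its mean over the 7 Z-hybrid Smart-seq libraries was at least 2 TPM, when every Z-hybrid library lay above every W-hybrid library at 10 days post fertilization (dpf, 3 against 3 libraries) and at 12 dpf (4 against 4), and when the mean difference was at least 0.4 at each age. Of the 32057 genes, 14642 reached the minimum level, and these candidates are the background used below. At 10 dpf 20% of the candidates met the condition on the difference, and at 12 dpf 1.3% did. Because these values chose the members, the Smart-seq differences between the hybrids are given as a description without a test. The Quartz-seq and trunk libraries were not used by the rule. The comparison of ages by Smart-seq and that with the trunk are other contrasts, but they use the germ cell libraries that chose the members, so their counts of calls are not independent of the rule.

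Sex of the Nadia strain of zebrafish is tied to a ZW pair, in which WW and ZW fish can become females and ZZ fish become males. Domesticated strains such as Tupfel long-fin have lost this system. The W-hybrid larvae came from a WW Nadia mother and a father carrying Tg(ziwi:GFP), and the Z-hybrid larvae from a ZZ Nadia father and a mother carrying Tg(ziwi:GFP), in a Tupfel long-fin background. The transgene marks germ cells with GFP under the piwil1 promoter, and GFP-positive cells from the gonads of pooled larvae were sorted for each library. The direction of the cross and the Nadia haplotypes therefore differ between the hybrids along with the presumptive sex, and these cannot be told apart. Smart-seq HT covered W- and Z-hybrid germ cells at 10 dpf (3 libraries each) and 12 dpf (4 each) and 2 libraries of trunk cells at 10 dpf, whose hybrid the labels do not give. Quartz-seq, another method of cDNA amplification, covered 12 and 14 dpf with 2 W-hybrid libraries and 1 Z-hybrid library at each age. Nothing in the labels says which libraries came from separate clutches, so the spread between replicates may be partly technical.

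Total counts lay between 13556583 and 18321681 in the 14 Smart-seq germ cell libraries, between 13828828 and 37224644 in the 6 Quartz-seq libraries, and at 15225833 and 15282817 in the trunk. The 18 germ cell markers found in the files took 0.859% to 1.40% of the counts of the Smart-seq germ cells, 2.65% to 3.75% of the Quartz-seq counts and at most 0.000919% of the trunk counts. No germ cell marker was a member, where 77 of the 14642 candidates were members. Markers of other cell types were present in the germ cell libraries at low levels. The 11 muscle genes took 0.0110% to 0.0224% of the Smart-seq germ cell counts, with overlapping ranges of the hybrids at each age. The 7 leukocyte genes took 0.00395% to 0.00419% in W-hybrid cells and 0.00517% to 0.00633% in the Z-hybrid at 10 dpf, without overlap, but 0.00507% to 0.00580% and 0.00464% to 0.00601% at 12 dpf. The 17 pancreas and gut genes took 0.00385% to 0.00570% in W-hybrid cells and 0.00260% to 0.00373% in the Z-hybrid at 12 dpf. None of these markers was at 0 in all Smart-seq germ cell libraries. The part of such cells in the levels of the members was not tested, and in bulk samples fewer cells of a type and less RNA per cell cannot be told apart.

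Most of the Z-higher genes had low or moderate levels. The median member stood at 9.01 TPM in Z-hybrid cells and 3.19 TPM in W-hybrid cells at 10 dpf, and at 8.85 and 3.43 TPM at 12 dpf. The median difference was 0.93 at each age, with a range of 0.41 to 4.16 at 10 dpf and 0.40 to 4.89 at 12 dpf. A difference of 1 or more was found in 36 members at 10 dpf, in 35 at 12 dpf and in 26 at both ages. In 11 members the W-hybrid mean was under 1 TPM at both ages. The separation between the lowest Z-hybrid and the highest W-hybrid library was wide at 10 dpf (median gap 0.56) and narrow at 12 dpf (median gap 0.14), where 23 members were separated by less than 0.1. At 12 dpf replicate 1 was the highest W-hybrid library in 37 of the 77 members (48.1%, against 32.4% of the candidates). Replicates 1 and 3 were the lowest Z-hybrid libraries in 27 and 26 (35.1% and 33.8%, against 18.3% and 36.7% of the candidates). Leaving out a library drops conditions of separation from the rule, which by itself lets more genes in. The number of members was 158 without W-hybrid replicate 1 of 12 dpf and 166 without Z-hybrid replicate 3. It was 82 to 107 without any other library of 12 dpf, and 76 to 87 without any library of 10 dpf.

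**Figure D1:**
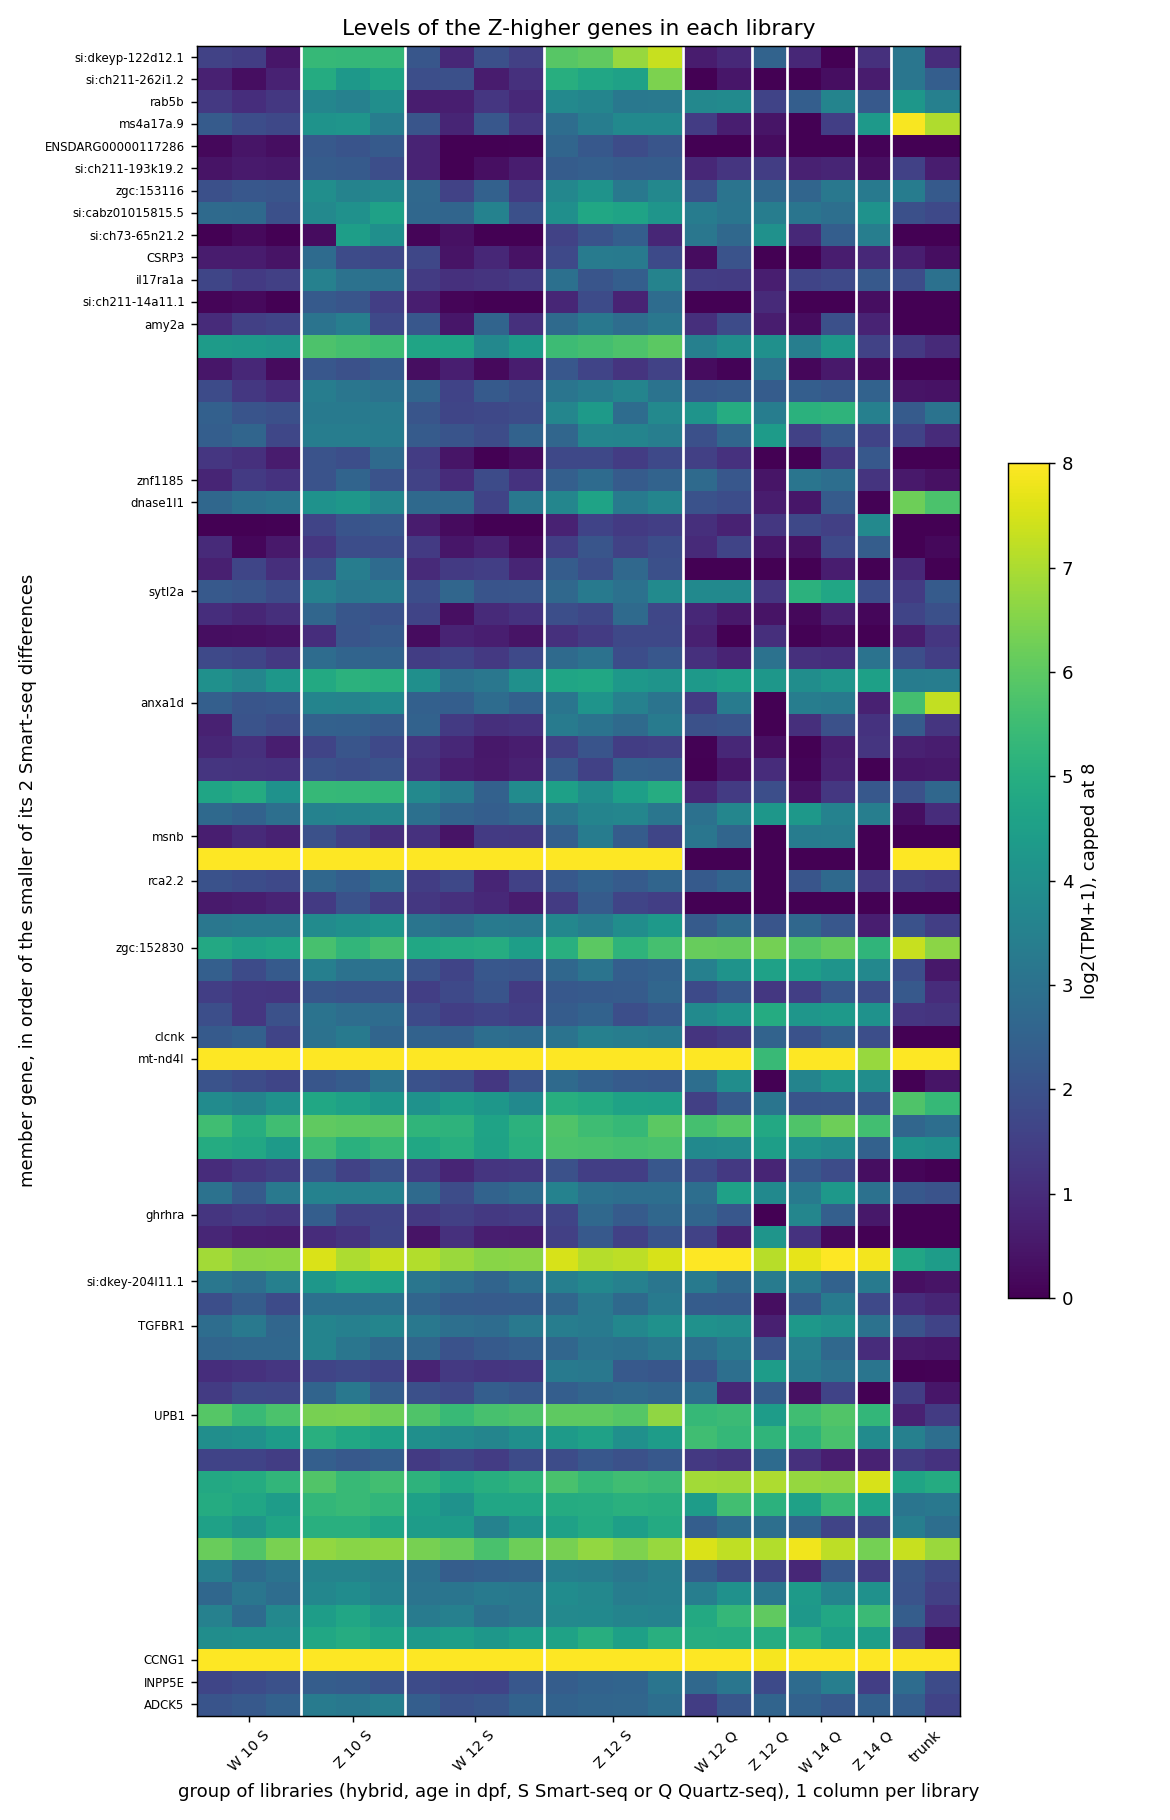
Level of 75 of the 77 members (rows, from the largest to the smallest Smart-seq difference, with the symbols of some of those named in the text) in each of the 22 libraries (columns), as log2(TPM+1) capped at 8 by colour. The Z-hybrid Smart-seq columns are brighter than the W-hybrid columns at 10 and 12 dpf, which is the rule, and the Quartz-seq and trunk columns follow no common order across the rows.

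The member with the widest separation was si:dkeyp-122d12.1 (ENSDARG00000096684), a gene model of 485 bases without an assigned function. At 10 dpf it was measured at 1.97, 1.72 and 0.41 TPM in W-hybrid cells and at 39.8, 39.1 and 39.0 TPM in Z-hybrid cells. At 12 dpf the W-hybrid libraries held 3.40, 0.85, 2.88 and 1.89 TPM and the Z-hybrid libraries 59.7, 65.7, 108 and 160 TPM. The means were 1.37 ± 0.838 against 39.3 ± 0.418 TPM (SD, n = 3) and 2.25 ± 1.13 against 98.5 ± 46.4 TPM (SD, n = 4). The transcript was therefore close to absent from the W-hybrid, with a mean of 9.14 counts per library against 368 in the Z-hybrid. The gene with the next largest separation, si:ch211-262i1.2 (ENSDARG00000100639, 444 bases), had 0.67, 0.22 and 0.70 TPM in W-hybrid cells and 29.4, 18.4 and 24.4 TPM in Z-hybrid cells at 10 dpf. At 12 dpf it had 0.54 to 2.89 TPM in the 4 W-hybrid libraries and 22.8 to 85.2 TPM in the 4 Z-hybrid libraries.

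The third was rab5b, which encodes a small GTPase of early endosomes. Its W-hybrid libraries held 1.51, 1.05 and 1.45 TPM at 10 dpf, where the Z-hybrid held 11.8, 10.4 and 14.6 TPM. At 12 dpf the W-hybrid held 0.55, 0.58, 1.40 and 0.90 TPM and the Z-hybrid 12.7, 11.6, 8.27 and 8.37 TPM. The difference was thus close to the same size at both ages, at 2.50 and 2.60, and the replicates of each hybrid lay close together. The gene ms4a17a.9, of the MS4A family of membrane proteins, had 3.95, 2.7 and 2.34 TPM against 16.4, 16.9 and 9.38 TPM at 10 dpf. At 12 dpf it had 3.34, 0.77, 3.51 and 1.33 TPM against 6.30, 9.50, 12.9 and 12.9 TPM.

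Of the remaining 8 members with the largest differences, CSRP3 encodes a LIM-domain protein of striated muscle and il17ra1a a receptor of interleukin 17. CSRP3 was measured at 0.54, 0.51 and 0.33 TPM in W-hybrid cells and at 5.97, 2.55 and 2.36 TPM in Z-hybrid cells at 10 dpf. At 12 dpf its groups nearly touched, with 2.25 TPM in the highest W-hybrid library and 2.37 TPM in the lowest Z-hybrid library. The il17ra1a transcript had 2.21, 1.56 and 1.89 against 10.4, 7.09 and 6.84 TPM at 10 dpf, and 1.18 to 1.65 against 3.35 to 10.8 TPM at 12 dpf. The gene ENSDARG00000117286 was at 0.13 to 0.37 TPM in W-hybrid cells and 3.22 to 3.76 TPM in Z-hybrid cells at 10 dpf. The replicates of si:ch73-65n21.2 in the Z-hybrid were the most unequal, at 0.20, 21.4 and 14.9 TPM at 10 dpf, while the W-hybrid had 0, 0.16 and 0 TPM. The gene models si:ch211-193k19.2, zgc:153116, si:cabz01015815.5 and si:ch211-14a11.1 complete the group, with differences of 1.67 and 1.90, 1.66 and 1.65, 1.64 and 1.69, and 1.86 and 1.38 at 10 and 12 dpf. None of these 4 has a function that the gene name gives.

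**Figure D2:**
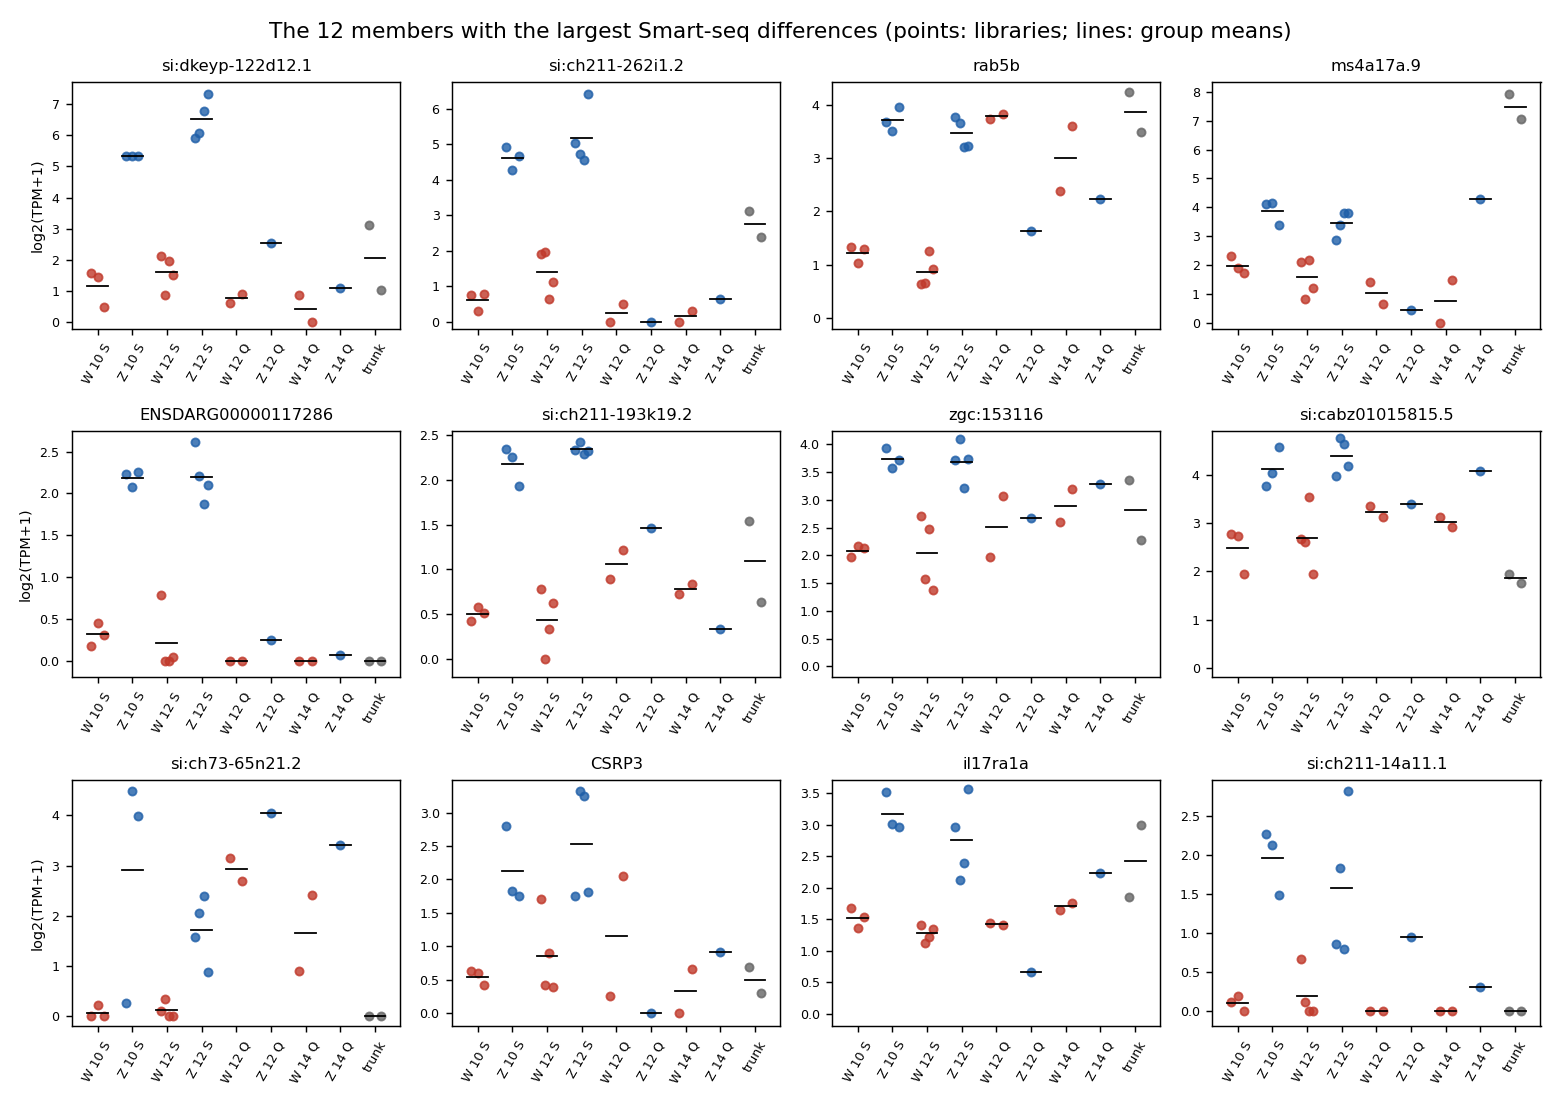
Each panel plots log2(TPM+1) of 1 of the 12 members with the largest Smart-seq differences in every library, by group (W or Z for the hybrid, age in dpf, S for Smart-seq and Q for Quartz-seq), with points for libraries and lines for group means. The hybrids are apart in all Smart-seq groups by the rule, while rab5b lies higher in the W-hybrid in both Quartz-seq groups and ms4a17a.9 is highest in the trunk.

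Members with assigned names covered several unrelated roles, grouped here after their values were seen. Genes of the cilium included tmem107 and INPP5E, which encode a protein of the transition zone and a phosphoinositide phosphatase. They differed by 0.46 and 0.41 at 10 dpf and by 0.59 and 0.82 at 12 dpf. Genes of vesicle traffic and of the vacuolar proton pump were sytl2a, TFG and ATP6V1D in addition to rab5b. The sytl2a transcript, which encodes a synaptotagmin-like protein of vesicle docking, had the largest difference of these 3, with 3.70, 3.33 and 2.54 TPM in W-hybrid cells and 10.5, 8.21 and 8.99 TPM in Z-hybrid cells at 10 dpf. Genes with a role in immunity other than il17ra1a were mhc1uba (MHC class I) and rca2.2 (regulation of complement). The mhc1uba transcript was measured at 25.0, 29.3 and 15.8 TPM in W-hybrid cells and at 40.5, 39.2 and 38.3 TPM in Z-hybrid cells at 10 dpf, and at 4.62 to 13.5 against 14.2 to 29.7 TPM at 12 dpf. Its libraries of 12 dpf lay below those of 10 dpf in both hybrids, but the change with age was not called (edgeR adjusted p = 0.215 in the W-hybrid and 0.248 in the Z-hybrid).

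Signalling and transcription were represented by TGFBR1 (type I receptor of TGF-β), ghrhra (receptor of growth hormone releasing hormone), CREB1 and LMX1B (transcription factors). CREB1 had 15.1, 11.7 and 17.7 TPM in W-hybrid cells and 28.0, 34.0 and 32.0 TPM in Z-hybrid cells at 10 dpf. Among the genes of RNA and DNA metabolism, DCLRE1C encodes the nuclease Artemis of DNA end joining, HNRNPK an RNA-binding protein and INTS13 a subunit of the Integrator complex. DCLRE1C was at 45.8, 31.0 and 46.2 against 64.9, 62.7 and 60.6 TPM at 10 dpf and differed by 0.62 at each age. The enzyme genes pank2 (coenzyme A synthesis), UPB1 (pyrimidine breakdown), dnase1l1 (a DNase I relative) and amy2a (amylase) were also members. The amy2a transcript had 0.97, 1.88 and 2.11 TPM in W-hybrid cells and 7.38, 9.63 and 2.41 TPM in Z-hybrid cells at 10 dpf. It is on the list of pancreas and gut markers, whose summed share of counts at 12 dpf lay lower in the Z-hybrid. The bmb gene (brambleberry), needed for nuclear fusion in the early zebrafish embryo, differed by 1.16 at 10 dpf and 0.44 at 12 dpf.

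The most abundant members were CCNG1, mt-nd4l and ENSDARG00000080128. CCNG1, which encodes cyclin G1, was measured at 753, 736 and 702 TPM in W-hybrid cells and at 1012, 1036 and 881 TPM in Z-hybrid cells at 10 dpf. At 12 dpf it had 738, 401, 425 and 697 against 1039, 855, 975 and 770 TPM. The mitochondrially encoded mt-nd4l, a subunit of respiratory complex I, had 571, 631 and 463 against 814, 779 and 993 TPM at 10 dpf and 305 to 626 against 779 to 1451 TPM at 12 dpf. It differed by 0.64 at 10 dpf and by 1.16 at 12 dpf. The entry ENSDARG00000080128, of 71 bases, stood at 325 to 559 against 679 to 784 TPM at 10 dpf, but this rested on a mean of only 26.7 counts in W-hybrid cells and 47.1 in the Z-hybrid libraries, so that its TPM is imprecise. Just inside the minimum difference of 0.4 were CCNG1 (smaller difference 0.415), INPP5E (0.410) and ADCK5 (0.402). Just outside it were fahd2a (0.393), TAF6 (0.365) and SPTLC1 (0.359), which were separated at both ages as well. The rule thus cut through a continuous range of differences.

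Many of the members are poorly characterized. A clone or cDNA name was carried by 32 members (41.6%), against 13.1% of the candidates, and 4 (5.19%) had no symbol, against 2.85%. The candidates were not matched to the members for level. Their median length of 1728 bases was near that of the candidates, 1873 bases. In the gene order of the GRCz12tu assembly, where 53 members were found, 6 pairs lay within 20 genes of each other. The number of such pairs among other genes was not computed. The members si:ch1073-398c20.3, zgc:153116, ms4a17a.9 and si:cabz01015814.1 lay in the same stretch, with 2, 4 and 15 genes between neighbours in that order. The other pairs were anxa1d and INPP5E, with 4 genes between them, and rab5b and si:rp71-45g20.4, with 5. Members of the MS4A and MHC class I families can share reads with near-identical copies, which the authors' counting divides between them. The reads carried no stated strand, so a clone-named model that overlaps another gene cannot be told apart from it.

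With age, few of the members changed. In the Z-hybrid 2 of the 77 members rose from 10 to 12 dpf and none fell, by edgeR's quasi-likelihood test, where 1.25% of all genes tested rose and 0.332% fell. A call required a Benjamini-Hochberg adjusted p under 0.05, a change of 1.5-fold or more and a mean of over 5 TPM in the higher group. They were si:dkeyp-122d12.1, whose values are given above, with a log2 fold change of 1.57 ± 0.368 (SE, Benjamini-Hochberg adjusted p = 0.0348), and si:dkey-29j8.3. The latter had 2.13, 2.32 and 2.05 TPM at 10 dpf and 8.62, 8.24, 3.72 and 3.42 TPM at 12 dpf, without overlap, and a log2 fold change of 1.65 ± 0.377 (SE, edgeR Benjamini-Hochberg adjusted p = 0.0318). The median log2 fold change of the members was 0.13, against 0.00 for all genes tested. Neither call was made when any 1 of the 3 Z-hybrid libraries of 10 dpf or replicate 3 of 12 dpf was left out (0 calls). Without replicate 2 or 4 of 12 dpf 1 call was made. Of all genes, 0.00% to 0.0930% were called in the fits with 0 member calls, and 0.510% and 0.260% in those with 1. In the W-hybrid edgeR called 0 of the 77 members, and 0.00% of all genes in each direction, from 10 to 12 dpf. At an unadjusted p under 0.05 there were 7 members (9.09%, against 12.7% of all genes). DESeq2 called 1 member lower, where it called 55 of all 21675 genes higher and 46 lower. From 12 to 14 dpf, among the Quartz-seq libraries of the W-hybrid, edgeR called 0 of 70 members tested, against 0.0130% of all genes higher and 0.00% lower. At an unadjusted p under 0.05 there were 0 members, against 4.48% of all genes, and DESeq2 called 0, against 0.263% of all genes.

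The Quartz-seq libraries give the same contrast of hybrids in cells the rule did not use. There the Z-hybrid level of the Z-higher genes lay above or below the W-hybrid at shares near those of the candidates. At 12 dpf the Z-hybrid library lay above both W-hybrid libraries in 30 of the 77 members (39.0%, against 35.8% of the candidates) and below both in 38 (49.4% against 50.5%). At 14 dpf it lay above both in 23 (29.9% against 30.5%) and below both in 36 (46.8% against 51.5%). It was above at both ages in 13 members (16.9% against 16.9%), below at both ages in 23 (29.9% against 32.2%), and on opposite sides at the 2 ages in 18 (23.4% against 22.8%). The median difference was -0.14 at 12 dpf and -0.30 at 14 dpf, near the candidates' -0.26 and -0.28. A difference of 0.4 or more was found in 28.6% and 23.4% of the members at 12 and 14 dpf, against 30.8% and 24.4% of the candidates. With members chosen by the same rule on TMM-scaled log2(CPM+1), an alternative added after seeing the data, 25.6% were above at both ages. Other settings of the pseudocount, minimum level and difference gave 15.7% to 21.3%. With the Quartz-seq values on TMM-scaled CPM the share of the members was 14.3%, and that of the candidates on this scale is not given here. With 1 Z-hybrid library at each age, these values rest on 2 libraries of that hybrid in all, and both stood apart from the W-hybrid libraries. They held 16603 and 16623 genes with at least 10 counts, against 18968 to 20386 in the 4 W-hybrid libraries. The 9 gonadal somatic markers took 0.0327% (12 dpf) and 0.0382% (14 dpf) of the Z-hybrid counts, where the W-hybrid libraries gave 0.0168% to 0.0181% and 0.0232% to 0.0249%. In the Smart-seq germ cells DMRT1 (group means of 86.2 to 122 TPM) and CYP17A1 (16.5 to 27.0 TPM) had the highest levels of this list. Which genes carried the sum by Quartz-seq, and whether it measures the number of somatic cells, was not tested. The germ cell markers took 2.65% against 3.52% to 3.75% at 12 dpf and 3.20% against 3.30% to 3.42% at 14 dpf. The part of these differences between libraries in the Quartz-seq values of the members was not tested. Among the 12 members with the largest Smart-seq differences, 5 were above at both ages and 1, rab5b, was below at both, against 16.9% and 32.2% of the candidates. Of these 5, ENSDARG00000117286 (0.19 and 0.05 TPM in the Z-hybrid at 12 and 14 dpf) was near the floor. So was si:ch211-14a11.1 (0.93 and 0.24 TPM), and both were at 0 TPM in the W-hybrid. Among the 26 members with a difference of 1 or more at both Smart-seq ages, 7 were above and 6 below at both.

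**Figure D3:**
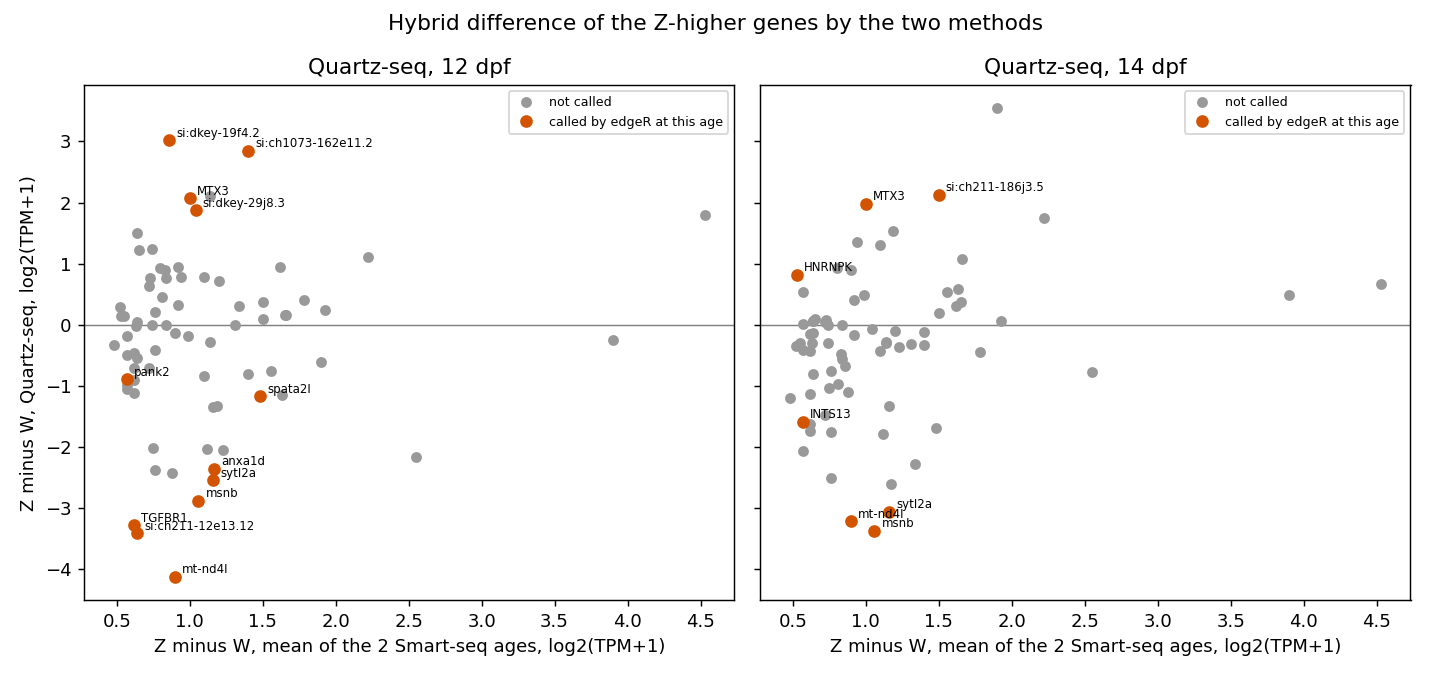
Difference between the hybrids (Z minus W, log2(TPM+1)) of 75 of the 77 members by Quartz-seq at 12 dpf (left) and 14 dpf (right) against the mean difference over both Smart-seq ages, with members called by edgeR at that age in orange. All points are right of 0 on the x axis by the rule, and they lie on both sides of 0 on the y axis at each age (medians of all 77 members -0.14 and -0.30).

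Across both Quartz-seq ages, edgeR called 0 of 70 members higher and 2 lower in the Z-hybrid, where 2.18% of all genes were called higher and 1.15% lower. At an unadjusted p under 0.05 there were 3 members higher and 13 lower, together 22.9% of the members tested against 22.0% of all genes. DESeq2 called 3 higher and 11 lower, where it called 7.70% of all genes higher and 7.01% lower. The 2 called by edgeR, msnb and mt-nd4l, went in the direction opposite to Smart-seq. The msnb gene encodes moesin, which links the plasma membrane to cortical actin. By Quartz-seq it had 7.91 and 5.09 TPM in W-hybrid cells at 12 dpf, 9.19 and 9.49 TPM in W-hybrid cells at 14 dpf, and 0 in the Z-hybrid library of each age. By Smart-seq it had 0.58, 0.92 and 0.71 against 2.92, 1.91 and 1.12 TPM at 10 dpf, and 0.35 to 1.58 against 2.19 to 9.20 TPM at 12 dpf. The Z-hybrid level was at least 41.5-fold lower by Quartz-seq, taking 3 counts per library as the limit of a count of 0 (edgeR adjusted p = 0.0137). For mt-nd4l the W-hybrid libraries held 408 and 1325 TPM at 12 dpf and 670 and 1518 TPM at 14 dpf, and the Z-hybrid libraries 41.5 and 108 TPM. The log2 fold change was -3.60 ± 0.697 (SE, edgeR adjusted p = 0.0263). It was -2.92 without the Z-hybrid library of 12 dpf and -4.47 without that of 14 dpf. Neither call was made when W-hybrid replicate 1 or 2 of 12 dpf or replicate 2 of 14 dpf was left out. In these fits edgeR called 0 members, and 0.617%, 0.399% and 0.856% of all genes in turn. Without the Z-hybrid library of 12 dpf it called 4 of 68 members higher and 7 lower, where 5.52% of all genes were called higher and 4.80% lower. Without that of 14 dpf it called 4 of 70 higher and 12 lower, where 8.26% of all genes were called higher and 13.8% lower.

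Other mitochondrially encoded genes were also low in the Z-hybrid by Quartz-seq. Of the other 12 protein genes of the mitochondrial genome, 8 were called lower at 12 dpf, 3 at 14 dpf and 1 across both ages, and 0 higher. Of all genes tested, 13.3%, 4.23% and 1.15% were called lower in these comparisons. In the gene called across both ages, MT-CO2, the log2 fold change was -3.36, close to that of mt-nd4l. By Smart-seq at 12 dpf the mean of the Z-hybrid lay above that of the W-hybrid in most of them. An example is MT-ND4, which adjoins mt-nd4l on the mitochondrial genome, at 1750 against 988 TPM. At 10 dpf the Z-hybrid mean lay below in MT-ND1 (1650 against 1730 TPM), MT-ND2, MT-ND3 and MT-ND5 (373 against 391 TPM), and above in the others.

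The other members named for a lower level in the Z-hybrid by Quartz-seq did not pass the test across ages. They were ghrhra, anxa1d, sytl2a, dnase1l1, znf1185, rca2.2 and TGFBR1, with log2 fold changes from -4.38 to -2.29 and edgeR adjusted p from 0.0560 to 0.343. At single ages some were called, where the Z-hybrid is 1 library and the spread comes from the W-hybrid libraries alone. The sytl2a transcript had 13 and 12.8 TPM in W-hybrid cells and 1.38 TPM in Z-hybrid cells at 12 dpf, and 34.2 and 25.8 TPM against 2.69 TPM at 14 dpf. Its log2 fold change was -3.19 ± 0.834 at 12 dpf and -3.15 ± 0.794 at 14 dpf (SE, edgeR adjusted p = 0.0155 and 0.0260), and it was not called at 14 dpf without W-hybrid replicate 1 (-2.86). The anxa1d transcript, which encodes an annexin that binds membranes in a calcium-dependent manner, had 1.60 and 9.06 TPM in W-hybrid cells and 0 in the Z-hybrid at 12 dpf, a level at least 11.7-fold lower, which was not called without W-hybrid replicate 2. It had 9.50 and 8.52 against 0.65 TPM at 14 dpf.

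At 12 dpf edgeR called 4 of 70 members higher and 9 lower in the Z-hybrid, where 8.14% of all genes tested were called higher and 13.3% lower. The lower ones included msnb, mt-nd4l, sytl2a, anxa1d, TGFBR1, spata2l, pank2 and ENSDARG00000094737, and the higher ones MTX3, si:dkey-29j8.3, si:dkey-19f4.2 and ENSDARG00000096702. TGFBR1 had 15.6 and 14.4 TPM in W-hybrid cells and 0.64 TPM in Z-hybrid cells, with a log2 fold change of -4.51 ± 0.774 (SE, edgeR adjusted p = 0.00182). The pank2 transcript had 257 and 264 against 140 TPM. At 14 dpf edgeR called 3 of 70 members higher and 4 lower, where 4.95% of all genes were called higher and 4.23% lower. The lower ones were msnb, mt-nd4l, sytl2a and INTS13, of which msnb, mt-nd4l and sytl2a were called lower at both ages. The higher ones were MTX3, HNRNPK and si:ch211-186j3.5. Scaling by library size alone, which moved the median of all genes at 14 dpf from -0.28 to -0.59, gave 1 member higher and 9 lower. Of all 23154 genes tested, 646 were then called higher and 1368 lower.

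MTX3, which encodes a metaxin of the mitochondrial outer membrane, was the one member called higher in the Z-hybrid at both Quartz-seq ages, each time from a single Z-hybrid library. It had 1.14 and 0.73 TPM in W-hybrid cells and 7.07 TPM in Z-hybrid cells at 12 dpf, and 1.15 and 1.07 against 7.30 TPM at 14 dpf. By Smart-seq it had 2.41, 2.18 and 1.49 against 6.12, 4.92 and 4.80 TPM at 10 dpf, and 1.5 to 2.38 against 2.7 to 7.10 TPM at 12 dpf. The log2 fold change was 2.72 ± 0.778 at 12 dpf and 2.90 ± 0.774 at 14 dpf (SE, edgeR adjusted p = 0.0238 and 0.0322). It was not called without W-hybrid replicate 2 of either age, where the log2 fold change was 2.43 and 2.85. Across both ages it was 2.81 ± 0.726, which missed the threshold (edgeR adjusted p = 0.0666). HNRNPK had 105 and 99.99 TPM in W-hybrid cells and 182 TPM in Z-hybrid cells at 14 dpf, with a log2 fold change of 1.11 ± 0.299 (SE, edgeR adjusted p = 0.0335), but 118 and 115 against 128 TPM at 12 dpf. It was not called at 14 dpf without W-hybrid replicate 2, where the log2 fold change was 1.05.

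The remaining genes above both W-hybrid libraries at both Quartz-seq ages included bmb, ATP6V1D, mhc1uba, si:dkeyp-122d12.1 and si:ch73-65n21.2, named after their values were seen. The bmb transcript had 28.3 and 39.6 against 64.8 TPM at 12 dpf and 18.3 and 26.6 against 42.8 TPM at 14 dpf, with a log2 fold change across ages of 0.89 ± 0.345 (SE, edgeR adjusted p = 0.176). The member with the largest Smart-seq difference, si:dkeyp-122d12.1, was low throughout, at 0.54 and 0.88 against 4.88 TPM at 12 dpf and 0.84 and 0 against 1.15 TPM at 14 dpf. Its log2 fold change of 1.58 had an adjusted p of 0.471 by edgeR. The next largest, si:ch211-262i1.2, was at 0.54 TPM or less in all 6 Quartz-seq libraries and was not tested. In ms4a17a.9 the single Z-hybrid library of 14 dpf stood alone at 18.6 TPM, against 0 and 1.82 TPM in W-hybrid cells and 0.36 TPM in the Z-hybrid at 12 dpf (edgeR adjusted p at 14 dpf = 0.0717). The rab5b transcript was higher in the W-hybrid by this method, at 12.3 and 13.2 against 2.08 TPM at 12 dpf and 4.21 and 11.2 against 3.67 TPM at 14 dpf, and was not called (edgeR log2 fold change -1.84, adjusted p = 0.243). By Smart-seq the W-hybrid level of rab5b at the same age, 12 dpf, was at most 1.40 TPM. Of the 77 members, 2 were listed at 0 TPM in all 6 Quartz-seq libraries. These were ENSDARG00000080128 and si:dkey-223g10.3, and 7 members did not pass the filter on low counts.

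Against the trunk at 10 dpf, Z-higher genes were called in both directions, at shares near those of all genes when the hybrids were averaged. Averaging the hybrids, edgeR called 19 of the 77 members higher and 12 lower in germ cells (24.7% and 15.6%, against 23.7% and 20% of all genes tested). With the Z-hybrid alone 31 members were higher and 9 lower, where 5216 and 4310 of all 22024 genes were. With the W-hybrid alone 15 were higher and 14 lower, where 5051 and 4381 of all genes were. The rule chose members by their levels in each hybrid, so these counts by hybrid are partly fixed by it. The median log2 fold change was 0.93 for the members and 0.35 for all genes, and since a member had to be expressed in the Z-hybrid germ cells, this level was partly fixed by the rule. In 41 members (53.2%, against 61.1% of the candidates) both trunk libraries lay below every germ cell library of 10 dpf, and in 7 (9.09% against 12.3%) both lay above every one. The trunk mean was above the Z-hybrid mean in 9 members, between the means of the hybrids in 13 and below the W-hybrid mean in 55. In 12 members both trunk libraries were at 0 TPM. The same counts were not made for the candidates, so they are not read as a trait of the members. Scaling by library size alone moved the median of all genes to 1.1 and gave 26 of 77 members higher and 8 lower. Of all 22024 genes tested, 7339 were then called higher and 3141 lower.

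The members most depleted in germ cells were ms4a17a.9, anxa1d, dnase1l1, zgc:152830 and rab5b. The trunk libraries held 243 and 131 TPM of ms4a17a.9, against 16.9 TPM in the highest germ cell library of 10 dpf, a log2 fold change of -5.58 ± 0.234 (SE, edgeR adjusted p = 8.98e-09). For anxa1d the trunk held 47.6 and 152 TPM against 3.29 to 4.40 TPM in W-hybrid cells and 11 to 13 TPM in Z-hybrid germ cells (log2 fold change -4.86 ± 0.376, SE, and -5.57 or -3.45 without trunk replicate 1 or 2). For dnase1l1 it held 74.9 and 51.8 TPM against 5.41 to 7.57 and 11.7 to 17.8 TPM, and for zgc:152830 it held 161 and 96.8 TPM against 23.1 to 27.2 and 37.2 to 49.95 TPM. The groups did not overlap in these 4 genes. For rab5b the trunk held 17.9 and 10.2 TPM, which overlapped the Z-hybrid at 10.4 to 14.6 TPM and lay above the W-hybrid. For si:ch211-262i1.2 the trunk lay between the hybrids, with 7.76 and 4.23 TPM. Its log2 fold change of -1.17 for germ cells against trunk turned to 1.04 when only the Z-hybrid was compared. Likewise, that of zgc:153116 was -0.80 over both hybrids and 0.04 in the Z-hybrid.

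The members most enriched in germ cells were clcnk, UPB1, si:dkey-204l11.1, ghrhra and amy2a. The clcnk transcript, which encodes a chloride channel, had 2.09 to 4.51 TPM in W-hybrid cells and 5.13 to 8.59 TPM in Z-hybrid cells and 0 in both trunk libraries, a level at least 27.8-fold higher in germ cells. UPB1 had 41.7 to 58.8 and 74.5 to 82.9 TPM in the germ cells and 0.65 and 1.63 TPM in the trunk (log2 fold change 4.80 ± 0.387, SE, edgeR adjusted p = 1.19e-06), with a log2 fold change of 4.15 or 5.82 without trunk replicate 1 or 2. The gene model si:dkey-204l11.1 had 6.56 to 10.3 and 18 to 23.4 against 0.25 and 0.34 TPM. Both ghrhra and amy2a were at 0 TPM in the trunk but stayed under the minimum level of a call. Among the other members called higher in germ cells were nebl, DCLRE1C, mhc1uba, bmb and pank2. DCLRE1C stood at 5.19 and 6.38 TPM in the trunk against at least 31.0 TPM in every germ cell library, and pank2 at 25.7 and 20.6 TPM against at least 96.1 TPM.

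**Figure D4:**
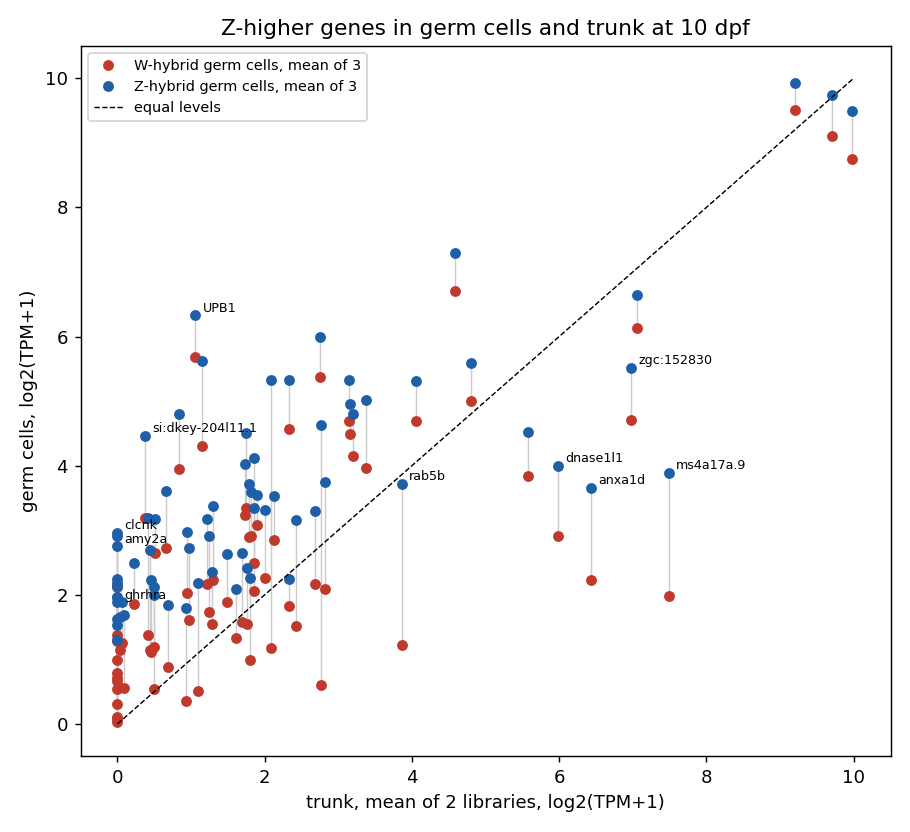
Mean log2(TPM+1) of 75 of the 77 members in W-hybrid (red) and Z-hybrid (blue) germ cells at 10 dpf (y axis, 3 libraries each) against the mean in the trunk (x axis, 2 libraries), with grey lines joining the hybrids and a dashed line at equal levels. Most members lie above the dashed line, while ms4a17a.9, anxa1d, dnase1l1 and zgc:152830 lie below it in both hybrids, and rab5b lies far below it in the W-hybrid and just below it in the Z-hybrid.

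Few of the members came from lists of germ cell and larval biology. With 77 members among 14642 candidates, lists of this size hold few or none by that share alone. Of the lists of meiosis (34 genes found), mitosis (40), DNA replication (50), apoptosis (20) and stress response (19), 0 genes were members. The list of antigen presentation and interferon (26 genes) contributed mhc1uba, that of endosome and vesicle traffic (26 genes) rab5b, and that of pancreas and gut (17 genes) amy2a. The traffic list as a whole had 1 of 26 genes called higher and 0 called lower in the Z-hybrid across both Quartz-seq ages, with a median log2 fold change of -0.21, against -0.19 for all genes. The antigen list had 0 of 24 genes tested called by edgeR, with a median of -0.68. Of the meiosis list, 11 of 34 genes were called lower in the Z-hybrid across both Quartz-seq ages and 0 higher, with a median of -1.40. Of all genes tested, 1.15% were called lower and 2.18% higher in that comparison.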

How the data were processed

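Each library held cDNA of sorted germ cells or trunk cells. Per the labels, the authors used STAR 2.7.7a, RSEM 1.3.1 and the GRCz11 build. The expected counts the authors deposited are RSEM estimates, which need not be whole, and were rounded here. The deposited TPM are from RSEM as well, scaled by gene length and library total. The deposited length per gene, in bases, was used for 1 comparison. The labels give the Smart-seq kit in every extract protocol, and the method was taken from the description of each library. Counts were available for all 22 libraries, and no library was a copy of another.

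The members, role groups and lists were chosen with earlier results of these data known. Counts were tested with edgeR 4.0.16 in R 4.3.3 (TMM, filterByExpr, robust quasi-likelihood fits, prior count 2, Benjamini-Hochberg adjustment over all genes tested), with a call at an adjusted p under 0.05, 1.5-fold or more and over 5 TPM on average in the higher group. The hybrids were compared over the 6 Quartz-seq libraries with age as a covariate and at each age. At a single age the spread came from the W-hybrid libraries alone. Ages were compared in the 14 Smart-seq germ cell libraries or the Quartz-seq libraries, and the trunk with the 6 germ cell libraries of 10 dpf. Each standard error is the size of the log2 fold change over the root of edgeR's F. Bounds take 3 counts per library as the limit of a count of 0 on TMM-scaled CPM. The procedure was tested for some of the comparisons on counts simulated from the fitted spread, which says nothing of effects of single libraries. Alternatives were DESeq2 1.42.0, other scalings, filters, sets of libraries and the replicate number as a block. Genes named were the 12 with the largest smaller difference, those called or lower at both ages by Quartz-seq (the 10 largest), those next to the threshold, and the 5 highest and 5 lowest against the trunk. Others were named after their values were seen. Of 32057 genes, 28988 have a symbol. One gene was left out of the members in advance, and that gene and some results of single members are not reported here. Sequences were not analysed here.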

Additional observations from a re-analysis of the deposited data

Results flagged for a closer look

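In 60 groups of 4 libraries (30 named genes in the W- and Z-hybrid at 12 dpf by Smart-seq), 3 had 1 library far from the other three, and chance flags about 5% of such groups. UPB1 was at 102 TPM in Z-hybrid replicate 4, against 58.7 to 63.9 TPM in the others. In W-hybrid replicate 1, si:ch211-14a11.1 was at 0.59 TPM against 0 to 0.08 TPM, and ENSDARG00000117286 at 0.73 TPM against 0 to 0.03 TPM. Both stayed below every Z-hybrid library.

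The difference between the hybrids changed from 12 to 14 dpf by Quartz-seq in 3 of 70 members at an adjusted p under 0.05 (edgeR, interaction of hybrid and age). Of all 23154 genes tested, 2830 changed at that threshold, so the count is not read as a trait of the members. Among the members the change was 3.52 on the log2 scale in TGFBR1, 6.18 in ENSDARG00000094737 and -6.52 in si:dkey-19f4.2. TGFBR1 went from 15.6 and 14.4 against 0.64 TPM (W against Z) to 18.4 and 15.5 against 7.17 TPM. At an unadjusted p under 0.05 there were 14 members (20%), against 28.1% of all genes tested. Each age holds 1 Z-hybrid library, so age and library cannot be told apart.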

How the results depend on the processing

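Of the 694 fold changes of called members under alternatives, 617 kept direction and call, 75 kept direction only and 2 reversed, namely zgc:153116 (0.04) and si:ch211-262i1.2 (1.04) against the trunk with the Z-hybrid alone. The number of members was 47 with a pseudocount of 5, 50 with a minimum of 5 TPM, 78 on TMM-scaled log2(CPM+1), of which 56 were shared, and 76 to 166 leaving out 1 library. The members called across both Quartz-seq ages numbered 14 with DESeq2, 4 with no filter on low counts, 23 with all 20 germ cell libraries fitted, 0 with the replicate number as a block, and 0 to 16 leaving out 1 library. At 12 dpf they numbered 6 with 10 counts required in every library, 21 with all 20 libraries and 9 to 12 leaving out 1. At 14 dpf they numbered 14 with DESeq2, 14 with no filter, 19 with all 20 libraries and 7 to 9 leaving out 1. For 12 against 10 dpf in the Z-hybrid the count was 5 with DESeq2, 1 with library size alone, 1 with 10 counts in every library, 0 with the 7 libraries of the hybrid, 0 with the replicate block and 0 to 2 leaving out 1, and in the W-hybrid it was 1 with DESeq2 and 1 with the block. Against the trunk it was 52 without the TPM minimum and 27 to 33 leaving out 1. In an alternative added after seeing the data, members by the rule on log2(CPM+1) were above both W-hybrid libraries at both Quartz-seq ages in 20 genes (25.6%), against 13 (16.9%). Other settings of the rule gave 15.7% to 21.3%. Quartz-seq values on TMM-scaled CPM gave 14.3%, without a share of the candidates on that scale. The causes were not tested. The share of all genes called also moved with the setting. Across both Quartz-seq ages it was 3.33% by the main setting, 14.7% with DESeq2 and 4.92% with no filter. With all 20 germ cell libraries it was 28.8%, where 23 of 77 members were called. At 12 dpf it was 21.5% by the main setting, 32.4% with 10 counts required in every library and 29.8% with all 20 libraries. At 14 dpf it was 9.18% by the main setting, 14.2% with DESeq2, 11.5% with no filter and 18.2% with all 20 libraries. Against the trunk it was 43.8% by the main setting and 68.7% without the TPM minimum. For 12 against 10 dpf in the Z-hybrid it was 1.58% by the main setting and 4.41% with DESeq2. It was 1.09% there with library size alone and 3.16% with 10 counts in every library. With the 7 libraries of the Z-hybrid 5 of 20428 genes were called higher and 3 lower, and with the block 2 and 0. In the W-hybrid DESeq2 called 55 of 21675 genes higher and 46 lower. The block called 2.16% there, where 1 of 66 members was called. The larger counts under these settings are therefore not read as a trait of the members.

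Same-numbered libraries shared little of their deviation from the group means (r from -0.0384 to 0.16), and the main fits did not pair them. With so few libraries per group, these values cannot exclude shared clutches or batches. Depth limits the members with few reads, of which 9 had a mean under 50 counts in the Z-hybrid. Each value of the Z-hybrid by Quartz-seq rests on 1 library per age.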

Other observations

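The rule mirrored for genes higher in the W-hybrid gave 99 genes, against 77 in the direction described. At 12 dpf the Z-hybrid Quartz-seq library listed 13 of the 77 members at 0 TPM (16.9%, against 8.18% of the candidates), and the W-hybrid libraries of that age listed 7 and 5 (9.09% and 6.49%, against 2.53% and 1.62%).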
